A study of Mus musculus with 22 samples.

Results

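The endothelium and the epithelium of the mouse lung were compared at postnatal day 7 (P7) in 4 of the 22 libraries of an RNA sequencing time course: 2 of sorted endothelial cells and 2 of sorted epithelial cells. All 4 came from whole lungs of wild-type (WT) C57BL6 mice of that age, with no transgene or agent in any group. According to the library names, endothelial cells were sorted on CD31, the protein of Pecam1, and epithelial cells on CD326, the protein of Epcam. Of 24344 genes with a value in the deposited matrix, 10715 reached 1 in at least 2 of these 4 libraries and were compared. The same 2 fractions at embryonic day 18.5 (E18.5) and at P28, with 2 libraries a group from WT C57BL6 mice, were used to ask whether the P7 difference held at other ages, and the 2 immune (CD45) libraries of P7 served as a further reference. The gates beyond the antigen, and the number of animals behind a library, are not given in the sources used here.

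Gas exchange in the lung takes place where flat alveolar type 1 cells lie against capillary endothelium on a shared basement membrane, while cuboidal alveolar type 2 cells make surfactant and renew the epithelium. In the mouse, new alveolar septa form in the first weeks after birth and the capillary network grows with them. Epithelial VEGF-A acting on endothelial receptors is the best known signal between the layers. The endothelium is built around VE-cadherin junctions and ETS and SOXF transcription factors, and the epithelium around E-cadherin, claudins, keratins and the factors NKX2-1 and FOXA.

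At P7, replicate 1 of each fraction carried the same identifier in its library name, and replicate 2 another. These identifiers were read as the source of the cells, which the names do not state. A difference could thus be taken within each identifier, called the source below. Both replicate 2 libraries came from the same sequencing run, while the replicate 1 libraries came from different runs. A block for the source does not separate it from the run. Every library had been rescaled by the authors to a total of 228405, so read depth was not known and very abundant genes reduce the values of the rest. The 10 highest genes took 18.19% and 16.37% of the endothelial totals but 35.12% and 30.53% of the epithelial ones, where Sftpc, the surfactant protein C gene, took 10.51% and 5.80%. Rn45s, a ribosomal RNA gene, took 10.43% and 6.92% of the endothelial totals and 12.13% and 6.19% of the epithelial ones. Libraries of a fraction correlated across genes with r = 0.9626 in endothelium and r = 0.9576 in epithelium on the log2(value + 1) scale, against 0.7329 to 0.7863 between fractions. P-values below measure only the spread between replicate libraries, estimated over all 22 libraries in 11 groups and not from the P7 libraries alone.

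The sort antigens followed the labels. Pecam1 (GRCm38 chr11:106654217-106750628, minus strand) was at 64.8 and 77.8 in endothelial replicates 1 and 2 and at 5.54 and 5.70 in epithelial replicates 1 and 2, in the deposited unit. Both endothelial libraries lay more than 10-fold above both epithelial ones, with a log2 difference (endothelium minus epithelium, on log2(value + 1), ± SE) of 3.44 ± 0.45 (limma, adjusted p = 1.93e-05). Epcam (chr17:87635979-87651129, plus strand) was at 1.06 and 3.18 in endothelium and at 35.1 and 37.2 in epithelium, a log2 difference of -3.66 ± 0.50 (adjusted p = 2.92e-05). Endothelial replicate 2 held about 3 times the Epcam value of replicate 1. Below, values of endothelial replicates 1 and 2 are given first and those of epithelial replicates 1 and 2 after "against" or "in epithelium", and a value with ± is the log2 difference with its SE. Ptprc, which encodes the leukocyte antigen CD45, stayed below the filter, with 0.224 and 0.311 in endothelium and 0.0335 and 0.0824 in epithelium, against 33.2 and 30.9 in the immune libraries.

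**Figure D1:**
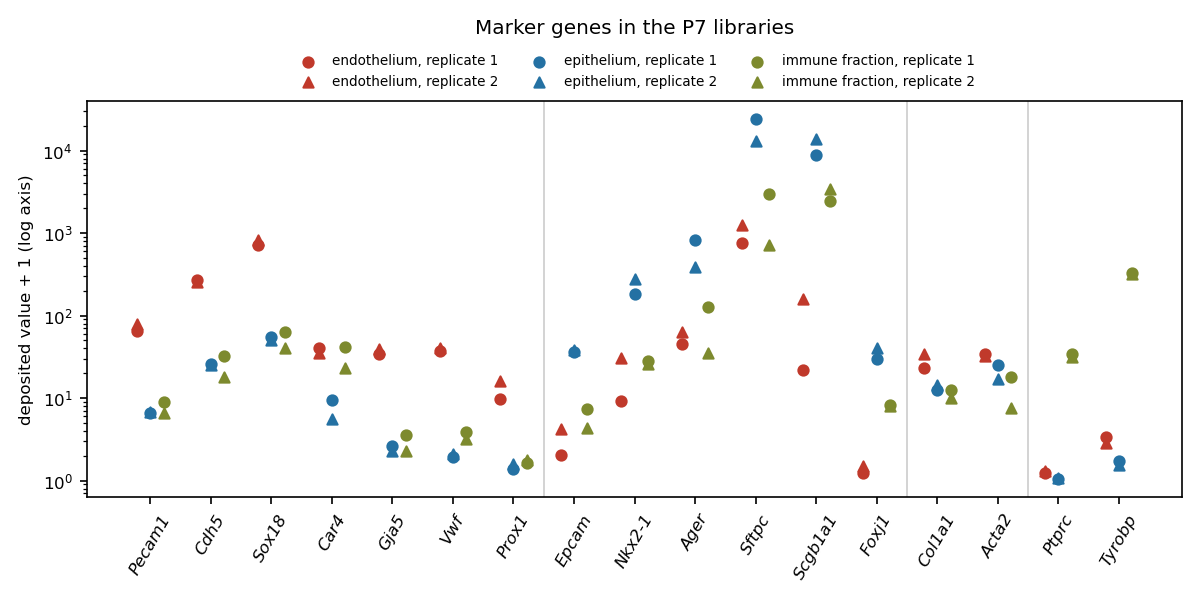
Deposited value + 1 (log axis) of 17 marker genes in the 6 P7 libraries; circles are replicate 1 and triangles replicate 2, and vertical lines separate endothelial, epithelial, mesenchymal and immune markers. Endothelial markers are highest in the endothelial libraries, where Pecam1 reads 64.8 and 77.8, except Car4, which the immune libraries hold at a like level, and epithelial markers are highest in the epithelial libraries.

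Of the 10715 genes, 4514 (42.1%) differed at an adjusted p under 0.05 (limma, Benjamini-Hochberg over all genes). A total of 3102 genes (29.0%) were higher in endothelium and 1412 (13.2%) lower. Counts of list genes that passed at P7, given below, are to be set against these shares. The lists share genes, such as Kdr, Tek, Sox18 and Nkx2-1, so their counts are not independent of each other. This split depended on the scale: after division by median-of-ratios size factors, 1808 genes (16.9%) were higher and 1796 (16.8%) lower. The size factors were 1.12 and 1.22 in endothelium and 0.85 and 1.01 in epithelium. The median log2 difference of all genes was 0.32 as deposited and 0.06 rescaled, so differences near 0.3 are at the level of all genes. All 1412 genes called lower, and 1808 of the 3102 called higher, kept their call after rescaling. All 4514 lay on the side of their call in both sources, and thus also within the single run of the replicate 2 libraries, but only 2522 kept the call in each of the 4 fits that left out a P7 library. The calls were made on these same libraries, so the agreement between the sources is not a separate check of them. Differences of at least 4-fold on the log2(value + 1) scale were seen for 472 genes higher and 393 genes lower. In the immune libraries, 411 of the 3102 higher genes (13.2%) and 119 of the 1412 lower genes (8.43%) had a mean above that of the fraction they were called in.

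**Figure D2:**
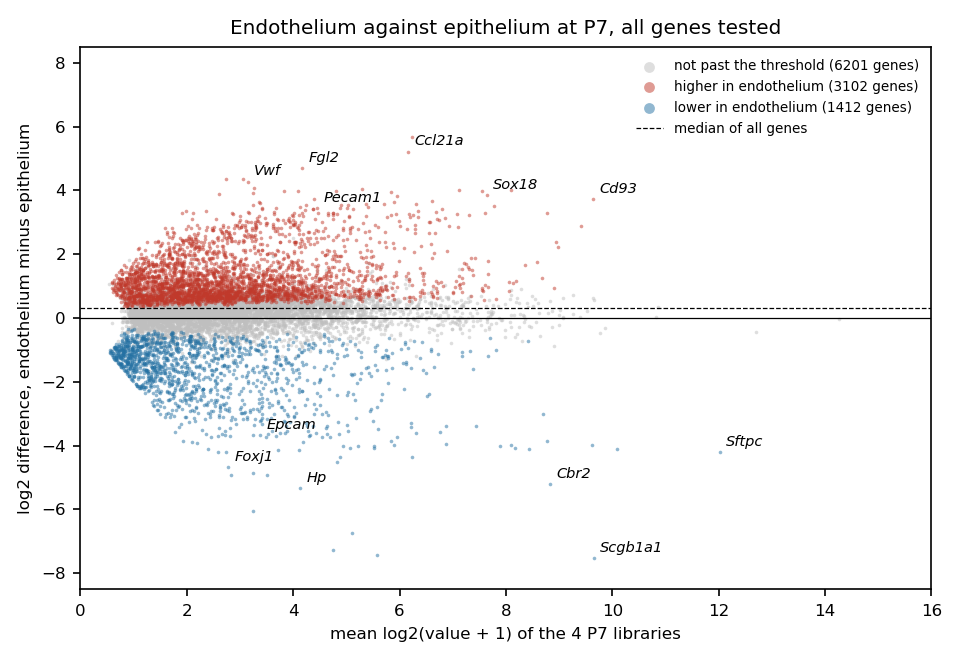
Log2 difference between endothelium and epithelium at P7 against the mean log2(value + 1) of the 4 libraries, for the 10715 genes tested; red genes are higher in endothelium (3102), blue genes lower (1412), and grey genes did not pass the threshold. The dashed line marks the median of all genes, 0.32, and the secretory gene Scgb1a1 lies lowest at -7.52.

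All 16 genes of the endothelial identity list were higher in endothelium, where 29.0% of all genes tested were. Their median log2 difference was 3.28 (2.97 rescaled) against 0.32 for all genes, and each kept its call when any P7 library was left out. Cdh5, which encodes VE-cadherin, was at 268 and 256 in endothelium and 24.9 and 23.9 in epithelium (3.37 ± 0.50, adjusted p = 5.66e-05). Tek, which encodes the angiopoietin receptor TIE2, was at 24.5 and 29.7 against 1.61 and 2.05. Its partner Tie1 was at 63.6 and 70.2 against 5.85 and 4.77. Sox18, a SOXF transcription factor gene, had the largest difference of the list, 3.87 ± 0.49, from 709.7 and 821 in endothelium and 53.4 and 49.6 in epithelium. The smallest was that of Esam, an endothelial adhesion molecule gene, at 1.96 ± 0.38 (adjusted p = 0.000589), with 66.9 and 40.2 against 15.7 and 10.1. No epithelial library reached an endothelial one for any of these 16 genes, as held for 49.2% of all genes tested.

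Genes that mark kinds of vessel were also higher in endothelium. All 8 general capillary genes passed the threshold (median 3.71), all 7 tested Car4-type capillary genes (2.40), all 6 arterial genes (3.03), 4 of 5 tested venous genes (2.52) and all 5 lymphatic genes (3.99). Aplnr, the apelin receptor of general capillary cells, was at 1095 and 1126 in endothelium and 64.9 and 69.4 in epithelium (4.03 ± 0.58). Car4, a carbonic anhydrase gene of the capillary cells that face type 1 cells, was at 39.6 and 34.3 against 8.59 and 4.56 (2.37 ± 0.49, adjusted p = 0.00106), and the immune libraries held it at 41.1 and 22.2. Gja5, a gap junction gene of arteries, was at 33.6 and 38.2 against 1.62 and 1.25 (3.92 ± 0.29). Slc6a2, a lung vein marker that encodes the noradrenaline transporter, was at 25.9 and 51.5 against 0.556 and 1.16 (4.36 ± 0.25). Vwf, the von Willebrand factor gene, was at 36.7 and 39.3 against 0.926 and 1.09 (4.28 ± 0.25). Bst1, an ectoenzyme gene, was the venous gene that missed the threshold, at 1.05 and 1.82 against 0.226 and 0.316 (adjusted p = 0.0521, and 0.0322 with a block for the source of the cells). Prox1, the lymphatic master regulator, was at 8.79 and 15.1 against 0.371 and 0.584 (3.09 ± 0.19), so the CD31 fraction held lymphatic as well as blood vessel transcripts. Ccl21a, a lymphatic chemokine gene with near-identical copies that the counting could split, was at 589 and 323 against 13.4 and 8.58 (5.22 ± 0.64). Fibin was the only one of these vessel genes whose call was lost without any single P7 library (adjusted p = 0.0289, and up to 0.137 without epithelial replicate 1), and it was also lost after rescaling (0.0746).

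All 16 epithelial identity genes were lower in endothelium (median -3.24), against 13.2% of all genes tested, and each kept its call when any P7 library was left out. Cdh1, which encodes E-cadherin, was at 1.42 and 5.20 in endothelium and 38.4 and 54.2 in epithelium (-3.59 ± 0.54, adjusted p = 7.23e-05). Krt8, a keratin gene of simple epithelia, was at 1.93 and 2.93 against 32.4 and 28.8 (-3.22 ± 0.49). All 14 alveolar type 2 genes were lower in endothelium (median -3.80). Sftpc was at 748 and 1262 in endothelium and 24016 and 13244 in epithelium (-4.20 ± 0.96, adjusted p = 0.00231). Sftpb, needed for surfactant film formation, was at 29.1 and 116 against 801 and 1122 (-4.00 ± 0.83). Lamp3, a lamellar body gene, was at 3.68 and 9.70 against 91.1 and 95.7 (-3.74 ± 0.56). The lysozyme gene Lyz2, shared by type 2 cells and myeloid cells, was at 135 and 290.3 against 3291 and 2992, and higher still in the immune libraries, at 5812 and 7761. Lyz1 and Lyz2 are close copies, so reads could have been split between them.

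Of 12 alveolar type 1 genes, 11 were lower in endothelium (median -2.44). Ager, the receptor gene that marks type 1 cells, was at 44.7 and 62.0 against 813 and 389.6 (-3.39 ± 0.76, adjusted p = 0.00199). Aqp5, a water channel gene, was at 6.08 and 13.4 against 118 and 89.9 (-3.37 ± 0.46). Akap5, a kinase anchoring gene, lost its call without endothelial replicate 1 (adjusted p = 0.00349 with it and 0.0608 without). Clic5, a chloride channel family gene, was at 20.8 and 31.1 in endothelium and 35.5 and 44.0 in epithelium, and its difference of -0.62 ± 0.24 missed the threshold as deposited (adjusted p = 0.0504) but passed it rescaled (0.00332) and with a block for the source (0.0491).

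The 5 largest differences of all genes, in either direction, were those of club and secretory cell genes of the conducting airway. All 7 tested club and secretory genes were lower in endothelium, with a median of -6.73. Scgb1a1, the secretoglobin gene of club cells, was at 21.2 and 159 in endothelium and 8745 and 13729 in epithelium (-7.52 ± 0.81, adjusted p = 3.99e-06). Cyp2f2, a club cell cytochrome P450 gene, was at 1.09 and 4.33 against 289.5 and 432 (-6.73 ± 0.60). Muc5b, an airway mucin gene, was at 0.134 and 0.475 against 38.9 and 37.1 (-4.91 ± 0.75). Bpifa1, a secreted airway defence gene listed at 0 in both endothelial libraries, passed the threshold (adjusted p = 0.0384) and lost the call without any single P7 library (adjusted p up to 0.137, without epithelial replicate 1). All 6 tested ciliated cell genes were lower (median -2.24), among them Foxj1, the regulator of motile cilia, at 0.218 and 0.505 against 29.0 and 39.6 (-4.69 ± 0.35). Only 2 of 9 basal and neuroendocrine genes passed the filter, and both were lower in endothelium, among them Krt15, a keratin gene of basal cells, at 0.182 and 0 against 9.41 and 4.18.

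Transcripts of each fraction were present in the libraries of the other. The 16 endothelial identity genes stood, at the median, at 9.05% and 8.00% of their endothelial mean in epithelial replicates 1 and 2. The 16 epithelial identity genes stood at 4.75% of their epithelial mean in endothelial replicate 1 and at 11.9% in replicate 2, with alveolar type 2 genes at 3.97% and 11.1% and alveolar type 1 genes at 7.26% and 23.0%. Club and secretory genes stood far lower in the same endothelial libraries, at 0.243% and 0.581%, and ciliated genes at 1.87% and 1.69%. Lymphatic genes in the epithelial libraries stood at 2.93% and 1.90%, below general capillary genes at 7.38% and 7.37%. Arterial genes stood at 8.59% and 8.39%, venous genes at 14.6% and 16.6%, and Car4-type capillary genes at 19.9% and 17.2%. In bulk samples, fewer cells of a type and less RNA per cell cannot be told apart, so these percents do not count cells, and their part in the differences was not tested.

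**Figure D3:**
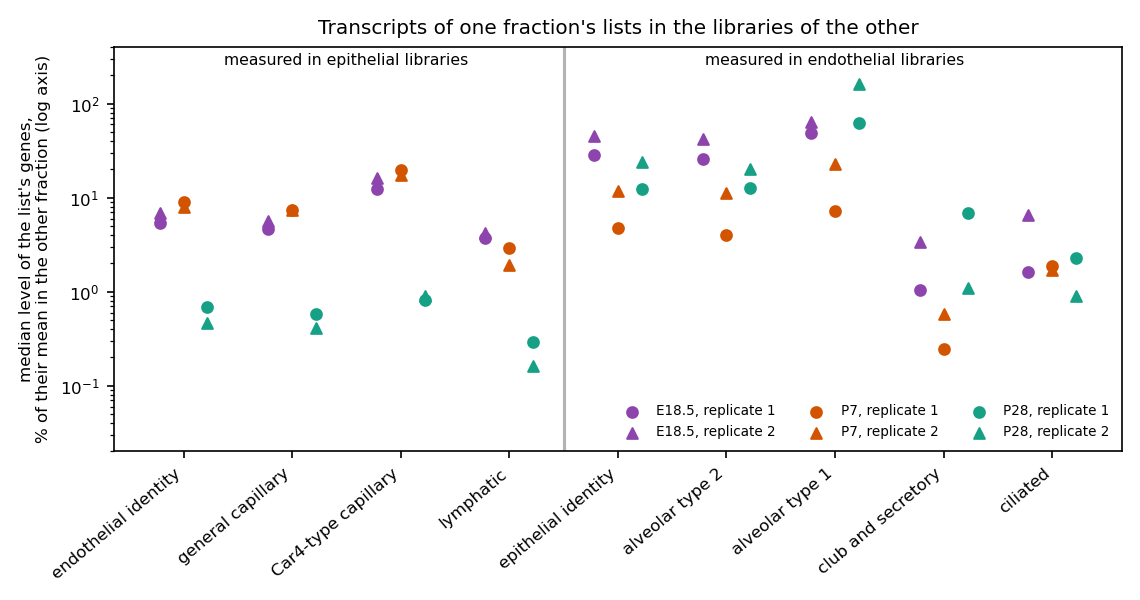
Median level of each list's genes in libraries of the other fraction, as a percent of their mean in their own fraction (log axis), at E18.5, P7 and P28 with circles for replicate 1 and triangles for replicate 2. At P7 the endothelial identity genes lie at 9.05% and 8.00% in epithelial libraries and the epithelial identity genes at 4.75% and 11.9% in endothelial libraries, while at P28 the former lie at 0.685% and 0.459% and at E18.5 the latter lie at 28.6% and 45.6%.

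Markers of cells that neither antigen selects were also measured. Of 9 tested mesenchymal genes, 5 were higher in endothelium as deposited, 2 after rescaling and 9 with a block for the source, and only Eln, the elastin gene, kept its call without any single P7 library (114 and 139 against 25.4 and 28.2, 2.19 ± 0.47). The summed values of the mesenchymal list were 521 and 646 in endothelium, 179 and 162 in epithelium and 409 and 222 in the immune libraries. Col1a1, the main fibroblast collagen gene, was at 21.9 and 33.2 against 11.6 and 13.6, a difference that missed the threshold (adjusted p = 0.17, 0.0175 with the block). Of 10 smooth muscle and pericyte genes, 3 were higher as deposited, a share near the 29.0% of all genes, 1 rescaled and 6 with the block. Rgs5, a pericyte gene, was the one call that no left-out library ended, at 2.91 and 2.02 against 0.921 and 0.382 (1.08 ± 0.22). Of 3 tested mesothelial genes 0 passed in limma, and 0 had an unadjusted p under 0.05. The immune identity list summed to 25.7 and 28.4 in endothelium and 11.4 and 14.4 in epithelium, against 1580 and 1850 in the immune libraries, with 2 of its 6 tested genes higher in endothelium, again near the share of all genes, and neither after rescaling, without endothelial replicate 1 or without epithelial replicate 2. Of 4 tested macrophage genes, 1 was higher in endothelium, a share near the 29.0% of all genes. It was Mrc1, the mannose receptor gene, at 2.46 and 3.499 against 0.0941 and 0.0757 (1.86 ± 0.44). Another was lower, Csf1r, the macrophage growth factor receptor gene, at 0.815 and 1.39 against 5.25 and 4.27 (-1.46 ± 0.51), a call that no fit without a P7 library kept. The macrophage list summed to 12.3 and 27.6 in endothelium and 19.8 and 28.6 in epithelium, against 2480 and 4360 in the immune libraries. The erythroid and platelet list summed to 181 and 62.4 in endothelium, 46.0 and 20.3 in epithelium and 186 and 76.8 in the immune libraries. Of its 6 tested genes, 2 were higher in endothelium as deposited, a share near the 29.0% of all genes, 1 rescaled and 3 with the block. The 2 were the haemoglobin genes Hba-a1 (1.47 ± 0.36) and Hbb-bs (2.64 ± 1.02), which have close copies that the counting could split. Hbb-bs lost its call without endothelial replicate 1, endothelial replicate 2 or epithelial replicate 2. Of 3 tested neutrophil genes 0 passed in limma, and 0 had an unadjusted p under 0.05, while no lymphocyte gene passed the filter. Whether mesenchymal, immune or red blood cells contribute to other differences between the fractions was not tested.

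Transcription factor genes followed the fractions. All 12 tested endothelial factors were higher in endothelium (median 3.13), and 13 of 14 tested epithelial factors were lower (median -2.48). Each of these calls held without any single P7 library and after rescaling. Erg, an ETS factor gene of endothelium, was at 12.1 and 15.7 in endothelium and 1.09 and 1.13 in epithelium (2.81 ± 0.32). Foxf1, a forkhead gene needed for lung capillaries, was at 319 and 304 against 36.2 and 35.8 (3.08 ± 0.54). Klf2, a flow-responsive gene, was at 112.6 and 58.1 against 10.7 and 5.51 (3.23 ± 0.66). In the opposite direction, Nkx2-1, the lung epithelial regulator, was at 8.31 and 29.9 against 182 and 275 (-3.73 ± 0.76, adjusted p = 0.000995). Foxa1, a pioneer factor gene, was at 0.972 and 3.85 against 36.1 and 44.9 (-3.74 ± 0.52). Sox2, an airway factor gene, was at 0 and 0.239 against 4.80 and 6.63 (-2.58 ± 0.39). Sox9, a factor gene of distal progenitors, was at 1.79 and 3.76 against 15.4 and 18.6 (-2.30 ± 0.47). Gata6 was the exception, at 6.00 and 7.70 in endothelium and 6.10 and 8.16 in epithelium (log2 difference -0.05 ± 0.27, adjusted p = 0.903).

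Promoters of genes from the identity lists that moved together are shown for 3 genes higher in endothelium (Tie1, Tek and Egfl7, a secreted vessel factor gene) and 3 higher in epithelium (Lyz1, Lyz2 and Sftpa1, the surfactant protein A gene). They had the largest differences among genes of the endothelial identity list, and of the epithelial identity and type 2 lists, with a promoter in the RefSeq table (GRCm38.p6) that held at least 1 of 4 short motifs. Egfl7 has 3 starts in that table, and its window is the first listed that held a motif. Each window runs from 250 bases before to 50 after the annotated start, 5′ to 3′ on the gene's strand. Capitals mark matches on either strand to GGAAGT (an ETS core), AACAAT (a SOX core), CAAGTG (an NKX2-1 core) or GTAAACA (a forkhead core). The windows are Tie1 chr4:118489800-118490099 (minus), Tek chr4:94739039-94739338 (plus), Egfl7 chr2:26580833-26581132 (plus), Lyz1 chr10:117292819-117293118 (minus), Lyz2 chr10:117282223-117282522 (minus) and Sftpa1 chr14:41131538-41131837 (plus).
Tie1: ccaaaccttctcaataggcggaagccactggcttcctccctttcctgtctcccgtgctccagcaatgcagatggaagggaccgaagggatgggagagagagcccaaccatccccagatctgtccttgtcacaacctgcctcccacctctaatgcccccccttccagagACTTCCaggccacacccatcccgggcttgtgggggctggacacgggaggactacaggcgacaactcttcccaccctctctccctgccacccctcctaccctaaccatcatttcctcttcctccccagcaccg
Tek: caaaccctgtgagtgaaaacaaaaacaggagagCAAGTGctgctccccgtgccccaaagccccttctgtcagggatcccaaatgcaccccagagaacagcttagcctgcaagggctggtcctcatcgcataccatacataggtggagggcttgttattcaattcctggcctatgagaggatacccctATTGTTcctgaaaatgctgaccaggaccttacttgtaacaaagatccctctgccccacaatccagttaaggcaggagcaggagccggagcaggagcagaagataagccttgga
Egfl7: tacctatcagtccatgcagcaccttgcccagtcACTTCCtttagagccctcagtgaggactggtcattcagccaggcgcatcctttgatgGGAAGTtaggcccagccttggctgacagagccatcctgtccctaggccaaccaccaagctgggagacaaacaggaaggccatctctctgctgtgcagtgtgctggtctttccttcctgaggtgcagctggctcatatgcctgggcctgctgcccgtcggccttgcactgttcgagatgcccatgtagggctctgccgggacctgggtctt
Lyz1: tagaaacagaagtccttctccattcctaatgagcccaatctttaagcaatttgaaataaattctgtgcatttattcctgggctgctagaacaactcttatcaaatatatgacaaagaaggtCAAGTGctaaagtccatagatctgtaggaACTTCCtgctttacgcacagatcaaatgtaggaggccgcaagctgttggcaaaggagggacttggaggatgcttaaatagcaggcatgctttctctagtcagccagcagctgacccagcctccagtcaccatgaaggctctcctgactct
Lyz2: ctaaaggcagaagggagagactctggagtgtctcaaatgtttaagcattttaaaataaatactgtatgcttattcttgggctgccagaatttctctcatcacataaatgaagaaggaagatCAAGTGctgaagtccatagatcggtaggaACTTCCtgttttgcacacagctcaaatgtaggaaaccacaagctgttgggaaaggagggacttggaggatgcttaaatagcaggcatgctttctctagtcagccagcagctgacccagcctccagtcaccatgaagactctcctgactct
Sftpa1: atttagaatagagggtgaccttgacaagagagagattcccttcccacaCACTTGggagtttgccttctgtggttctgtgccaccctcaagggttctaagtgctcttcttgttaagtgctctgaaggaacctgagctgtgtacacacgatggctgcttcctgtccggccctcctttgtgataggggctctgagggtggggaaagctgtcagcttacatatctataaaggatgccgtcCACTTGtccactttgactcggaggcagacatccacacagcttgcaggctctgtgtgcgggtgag

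The Tie1 window held an ETS core whose first base lay at -82 from the start, and the Egfl7 window held 2, at -217 and -160. The Tek window held an NKX2-1 core at -217 and a SOX core at -63. Lyz1 and Lyz2, which lie side by side and are close copies, both held an NKX2-1 core at -129 and an ETS core at -100, and Sftpa1 held NKX2-1 cores at -202 and -14. These matches are descriptions and not binding sites. Among 10191 promoters of 8089 tested genes in the table, 28.2% held the ETS core, 5.79% the SOX core, 11% the NKX2-1 core and 2.46% the forkhead core. Of 13 promoters of the 9 matched endothelial identity genes, 5 held the ETS core, 3 the SOX core, 2 the NKX2-1 core and 0 the forkhead core. Of 16 promoters of the 12 matched epithelial identity genes, 5 held the ETS core, 1 the SOX core, 3 the NKX2-1 core and 1 the forkhead core. The ETS core was in 0 of 4 general capillary, 0 of 5 arterial and 0 of 10 endothelial transcription factor promoters, and in 25.3% of the promoters of all genes called higher in endothelium, less than in those of all genes tested. The NKX2-1 core was in 3 of 4 general capillary promoters. Of 12 promoters of the 11 matched type 2 genes, 3 held the NKX2-1 core and 3 the forkhead core.

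All 8 angiogenic receptor genes were higher in endothelium (median 3.07) and kept their calls without any single P7 library. Kdr, the main VEGF-A receptor gene, was at 60.4 and 66.8 in endothelium and 7.35 and 8.75 in epithelium (2.84 ± 0.42, adjusted p = 5.59e-05). Flt4, the VEGF-C receptor gene, was at 52.2 and 84.9 against 3.00 and 3.56 (3.99 ± 0.36). Of 5 tested ligand genes, 3 were higher in endothelium and Vegfa was lower, against 29.0% of all genes higher and 13.2% lower. Vegfa was at 39.3 and 45.5 in endothelium and 143 and 111.1 in epithelium (-1.55 ± 0.31, adjusted p = 0.000736), so both epithelial libraries exceeded both endothelial ones. Vegfc, the lymphatic growth factor gene, was at 3.11 and 3.66 against 0.186 and 0.173 (1.89 ± 0.14). Apln, the apelin gene, was at 77.5 and 57.6 against 12.9 and 8.72 (2.54 ± 0.36). Angpt2, an angiopoietin gene made by endothelium itself, was at 1.75 and 2.13 against 0.363 and 0.576 (1.00 ± 0.19). Apelin and its receptor gene Aplnr were thus both higher in endothelium.

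Notch genes were mostly higher in endothelium, where 29.0% of all genes were: 3 of 4 ligands, 2 of 4 receptors and 6 of 7 targets and modifiers. Dll4, the ligand of arterial and tip cells, was at 26.2 and 24.7 in endothelium and 2.91 and 2.53 in epithelium (2.83 ± 0.25). Dll1, another ligand gene, was at 12.02 and 15.3 against 1.00 and 1.30 (2.76 ± 0.21). Notch1 was at 33.4 and 37.7 against 5.34 and 7.57 (2.31 ± 0.37) and Notch4, an endothelial receptor gene, at 27.0 and 23.3 against 2.73 and 1.84 (3.01 ± 0.31). Notch2 lay the other way, at 2.04 and 2.97 against 4.45 and 6.89 (-0.92 ± 0.37), which missed the threshold as deposited (adjusted p = 0.057) and passed it rescaled (0.0213) and with the block (0.0276). Hey1, a direct target gene, was at 207 and 263 against 20.9 and 27.2 (3.24 ± 0.59), while Hes1, a target gene in many cell types, was at 51.6 and 51.9 against 30.7 and 35.4 (adjusted p = 0.0673).

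In the BMP and TGF-beta pathway, 3 of 6 ligands and 4 of 7 receptors were higher in endothelium, where 29.0% of all genes were, and 1 of each was lower, where 13.2% of all genes were. Acvrl1 and Eng encode the receptor pair mutated in human hereditary telangiectasia. Acvrl1 was at 62.7 and 60.3 against 7.05 and 5.44, and Eng at 37.9 and 35.6 against 3.60 and 3.21, so both were far higher in endothelium (3.12 ± 0.35 and 3.10 ± 0.30). Bmpr2 was at 121 and 172 against 24.1 and 39.1 (2.19 ± 0.42), and Bmpr1a, another BMP receptor gene, lay lower in endothelium, at 2.42 and 3.47 against 8.65 and 11.1 (-1.47 ± 0.23, adjusted p = 0.000104). Among ligands, Bmp2 was at 9.30 and 16.4 against 3.40 and 5.44 (1.33 ± 0.28). Tgfb1 was at 8.57 and 8.62 against 2.13 and 2.84 (1.47 ± 0.26). Tgfb3 was the ligand gene lower in endothelium, at 2.75 and 4.45 against 7.92 and 9.31 (-1.09 ± 0.27), and its call was lost without endothelial replicate 1 (adjusted p = 0.0632). Bmp4 was at 54.4 and 77.2 against 67.2 and 100.2, which did not pass (adjusted p = 0.414). Smad6, an inhibitor gene induced by the pathway, was at 2.85 and 3.09 against 0.863 and 0.723 (1.15 ± 0.12).

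Guidance genes split between the layers. Of 11 tested ligands, 8 were higher in endothelium and 3 lower, against 29.0% and 13.2% of all genes. Efnb2, the arterial ephrin gene, was at 73.8 and 83.3 in endothelium and 10.5 and 11.1 in epithelium (2.75 ± 0.23). Sema3g was at 10.1 and 16.5 against 0.815 and 1.08 (2.84 ± 0.25). Sema6a was at 23.0 and 25.4 against 2.63 and 2.84 (2.75 ± 0.25). The semaphorins lower in endothelium were Sema3a, at 0.782 and 2.05 against 6.41 and 7.38 (-1.76 ± 0.29), Sema3b, at 3.60 and 6.43 against 29.8 and 23.1 (-2.22 ± 0.33), and Sema3e, at 0.347 and 0.937 against 5.41 and 6.24 (-2.08 ± 0.23). Plxnd1, which encodes the receptor of semaphorin 3E, lay the opposite way, at 31.4 and 28.7 against 2.74 and 2.03 (3.20 ± 0.35, adjusted p = 4.71e-06). Ephb4, which encodes the receptor of ephrin B2, was higher in endothelium, at 44.2 and 48.9 against 6.81 and 7.75 (2.52 ± 0.23).

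Of 8 tested growth factor ligand genes, 5 were lower in endothelium, where 13.2% of all genes were, and 2 higher, a share near the 29.0% of all genes. Shh, the hedgehog ligand gene, was at 1.91 and 3.84 in endothelium and 23.3 and 28.7 in epithelium (-2.84 ± 0.47, adjusted p = 0.00017). Pdgfa, which acts on alveolar myofibroblast precursors, was at 4.20 and 6.62 against 37.9 and 28.3 (-2.42 ± 0.39). Fgf18 was at 0.643 and 1.37 against 4.15 and 5.36 (-1.54 ± 0.28). Areg, an EGF receptor ligand gene, was at 0 and 0.2 against 3.93 and 3.92 (-2.17 ± 0.30). Pdgfb, which recruits pericytes, was higher in endothelium, at 16.8 and 10.5 against 5.25 and 4.78 (1.25 ± 0.34, adjusted p = 0.00782), but its call was lost without endothelial replicate 1 (0.0853) and after rescaling (0.0515). Of 12 receptors, 3 were higher, a share near the 29.0% of all genes, and 5 were lower, where 13.2% of all genes were. Fzd4, a Wnt and norrin receptor gene, was at 125 and 207 against 15.55 and 18.8 (3.16 ± 0.50). Fgfr2 was at 3.03 and 7.13 against 19.7 and 39.4 (-2.34 ± 0.41). Erbb3 was at 0.151 and 1.98 against 7.17 and 12.7 (-2.51 ± 0.41).

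**Figure D4:**
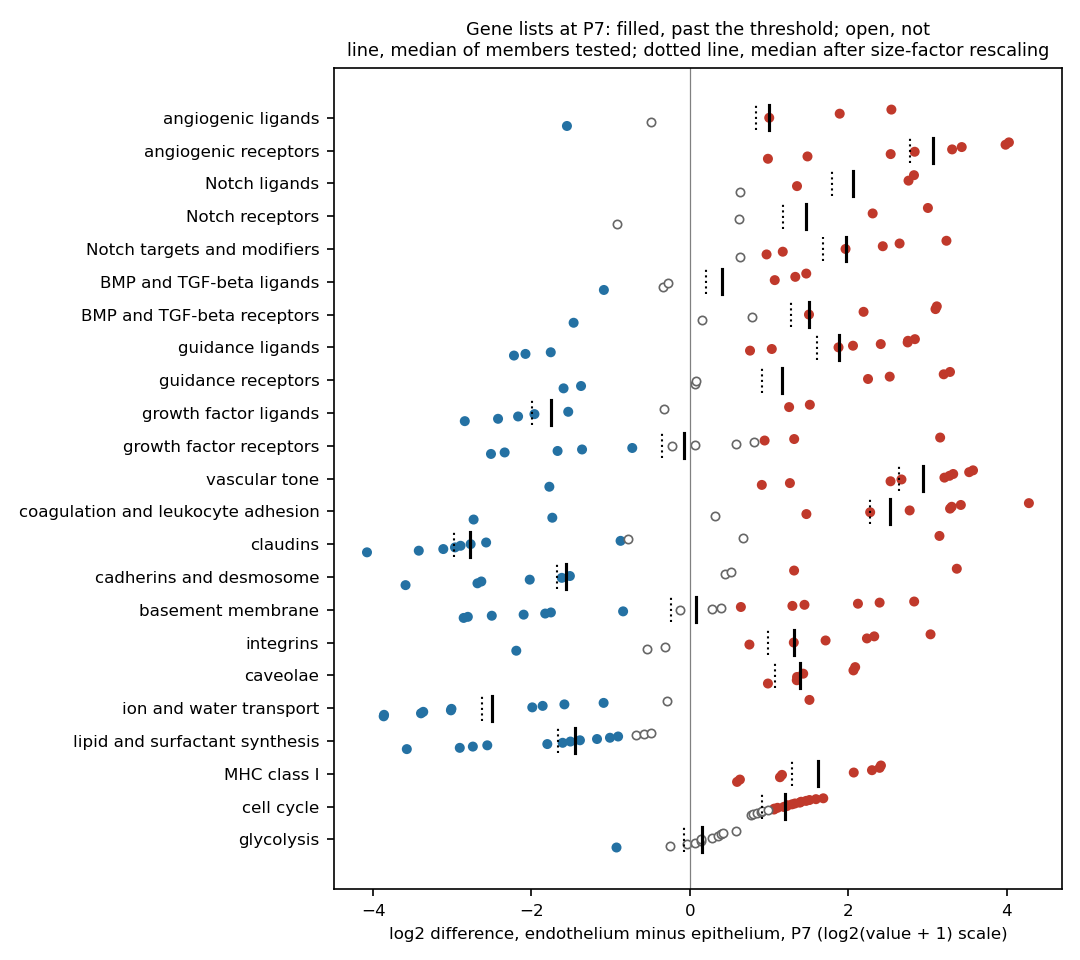
Log2 difference at P7 (x axis, log2(value + 1) scale) of every tested member of 23 gene lists (y axis); filled points passed the threshold, red for higher and blue for lower in endothelium, and open points did not. Solid lines are list medians and dotted lines the medians after size-factor rescaling: angiogenic receptors lie to the right (3.07), claudins to the left (-2.77), and basement membrane genes on both sides (0.08).

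Of 10 tested genes for vascular tone, 9 were higher in endothelium and 1 lower, and all kept their calls without any single P7 library. Nos3, the endothelial nitric oxide synthase gene, was at 6.96 and 6.32 in endothelium and 0.35 and 0.288 in epithelium (2.53 ± 0.20). Edn1, the endothelin gene, was at 42.8 and 52.3 against 3.80 and 4.66 (3.21 ± 0.31). Ace, the angiotensin converting enzyme gene, was at 222 and 228 against 22.8 and 21.9 (3.28 ± 0.64). Ptgs1, a cyclooxygenase gene, was lower in endothelium, at 10.8 and 16.9 against 42.3 and 56.5 (-1.77 ± 0.33). Of 10 tested coagulation and leukocyte adhesion genes, 7 were higher. Thbd, which encodes the anticoagulant thrombomodulin, was at 1133 and 1689 against 120.2 and 161 (3.31 ± 0.50). Procr, the protein C receptor gene, was at 38.7 and 29.9 against 1.84 and 2.76 (3.42 ± 0.32). F3, which encodes the coagulation starter tissue factor, was lower in endothelium, at 0.838 and 2.50 against 14.46 and 17.3 (-2.73 ± 0.30, adjusted p = 4.19e-06). Icam1 was also lower, at 17.4 and 29.5 against 73.0 and 83.3 (-1.74 ± 0.34), while Icam2 was higher, at 90.2 and 67.1 against 9.42 and 5.28 (3.28 ± 0.39).

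Claudin and desmosome genes were mostly lower in endothelium. Of 11 tested claudins, 1 was higher in endothelium and 8 lower. With the block 9 were lower and 2 higher, the second being Cldn15 (adjusted p = 0.139 without and 0.0479 with the block). Cldn5, the main claudin gene of endothelium, was at 464 and 254 against 52.6 and 27.1 in epithelium (3.15 ± 0.57, adjusted p = 0.000369). Cldn18, the alveolar claudin, was at 11.3 and 40.8 against 216 and 273 (-3.42 ± 0.73). Cldn3 was at 5.63 and 9.07 against 157 and 119 (-4.08 ± 0.62). Cldn6, known from fetal epithelia, was at 0.33 and 2.57 against 18.1 and 17.6 (-3.11 ± 0.65). Tjp1, the scaffold gene of both kinds of tight junction, was higher in endothelium, at 96.3 and 122 against 35.6 and 51.5 (1.32 ± 0.26), while Ocln, the occludin gene, was at 2.49 and 4.72 against 4.29 and 6.65 (adjusted p = 0.087 as deposited and 0.00641 rescaled). Of 10 tested cadherin and desmosome genes, 6 were lower in endothelium, such as Dsp, the desmoplakin gene, at 1.07 and 2.06 against 13.1 and 17.5 (-2.68 ± 0.31). Jup, which encodes plakoglobin and serves both junction types, was higher, at 65.2 and 73.2 against 24.99 and 29.5 (1.32 ± 0.27).

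Of 16 basement membrane genes, 6 were higher in endothelium, a share near the 29.0% of all genes, and 7 were lower, where 13.2% of all genes were. Col4a1, part of the collagen IV found in all basement membranes, was at 57.9 and 54.8 in endothelium and 18.8 and 21.3 in epithelium (1.45 ± 0.26). Lama4, the laminin chain gene of vessels, was at 7.18 and 5.88 against 0.753 and 0.693 (2.12 ± 0.28). Nid1, a linker gene, was at 78.6 and 101 against 9.87 and 13.7 (2.83 ± 0.44). The reverse held for Col4a3, at 2.78 and 8.97 against 35.5 and 49.4 (-2.80 ± 0.44), and for the laminin chain genes Lama3 and Lamb3, with differences of -2.10 and -2.50 on the log2 scale. Lamb3 was at 0.479 and 1.07 in endothelium and 8.19 and 9.66 in epithelium. Of 9 tested integrins, 6 were higher in endothelium, where 29.0% of all genes were. Among them was Itga5, a fibronectin receptor gene, at 38.2 and 46.8 against 3.03 and 5.89 (3.04 ± 0.36). Itgb6, part of an epithelial TGF-beta activating integrin, was lower, at 0.38 and 1.23 against 7.11 and 6.91 (-2.19 ± 0.31). All 6 caveolar genes were higher in endothelium as deposited (median 1.39) and 5 after rescaling, with Cav1 at 168 and 148 against 33.4 and 41.1 (2.07 ± 0.43).

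Transport and lipid synthesis genes were mostly lower in endothelium. Of 12 ion and water transport genes, 10 were lower in endothelium. The sodium channel gene Scnn1a was at 2.14 and 17.6 in endothelium and 45.4 and 138 in epithelium (-3.39 ± 0.66). Atp1b1, a sodium pump subunit gene, was at 5.46 and 33.5 against 139 and 337 (-3.87 ± 0.68). Endothelial replicate 2 and epithelial replicate 2 were the higher ones of their groups for both. Aqp1, the vascular water channel gene, was higher in endothelium, at 222 and 346 against 91.3 and 102 (1.51 ± 0.34). Of 14 tested lipid and surfactant synthesis genes, 11 were lower in endothelium, including Fasn, the fatty acid synthase gene, at 10.8 and 20.3 against 86.2 and 160.2 (-2.91 ± 0.36). Scd1, a desaturase gene, was at 17.02 and 53.4 against 299.9 and 461 (-3.57 ± 0.72). For fatty acid uptake, Gpihbp1, which anchors lipoprotein lipase on capillaries, was at 322 and 379 against 25.3 and 27.2 (3.68 ± 0.47), while Fabp4, a fatty acid binding protein gene, differed more between replicates than between fractions, at 188 and 5.90 against 7.03 and 0.0592. The Fabp4 call (adjusted p = 0.0226) was lost without endothelial replicate 1 or epithelial replicate 2 (up to 0.364) and after rescaling (0.058).

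The antigen presentation and growth lists depended more on scale. All 8 MHC class I genes were higher in endothelium as deposited (median 1.62) and with the block, and 5 after rescaling. Only 4 kept the call without endothelial replicate 2 or without epithelial replicate 1. B2m, the shared light chain gene, was at 928 and 1360.4 in endothelium and 182 and 248.8 in epithelium (2.40 ± 0.35). Psmb8, an immunoproteasome gene, was at 47.9 and 46.1 against 12.9 and 8.38 (2.07 ± 0.37). Of 20 cell cycle genes, 14 were higher in endothelium as deposited (median 1.20), 2 after rescaling and 19 with the block for the source. None of the 14 held in all 4 fits that left out a P7 library, which kept 3 to 5 each. Mki67, the proliferation marker gene, was at 136 and 142 against 45.0 and 59.7, and at 127 and 127 in the immune libraries (log2 difference 1.40 ± 0.46, adjusted p = 0.0226 as deposited, 0.0857 rescaled and up to 0.133 without epithelial replicate 1). Of 11 tested glycolysis genes 1 passed (the glucose transporter gene Slc2a1, lower in endothelium, -0.93 ± 0.23, lost without epithelial replicate 2 with adjusted p = 0.0504), and of 13 respiratory genes 2 as deposited and 0 rescaled in limma, with 2 at an unadjusted p under 0.05 as deposited. Among imprinted and fetal growth genes, 6 of 10 tested were higher in endothelium and 3 lower, against 29.0% and 13.2% of all genes. Igf2, a fetal growth factor gene, was at 475 and 149 against 30.6 and 34.3 (3.00 ± 0.42). Mest was at 419 and 315 against 38.9 and 28.3 (3.41 ± 0.51). Dlk1, a Notch-related gene, was at 1.06 and 4.22 against 17.1 and 24.4 (-2.71 ± 0.45). Endothelial replicate 1 held about 3 times the Igf2 of replicate 2, and replicate 2 about 4 times the Peg3 of replicate 1 (130.4 and 502.2 against 25.6 and 60.9 in epithelium, 2.66 ± 0.53). Of 13 immediate early genes, which rise during dissociation, 2 were higher in endothelium as deposited, 1 rescaled and 4 with the block, a smaller share than the 29.0% of all genes as deposited.

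Outside the lists, the 12 largest differences in each direction were taken among genes with a group mean of at least 10. Higher in endothelium were Fgl2, Tmem252, Gpr182, Lyve1, Ackr3, Clec14a, Fbln2, Thy1, Igfbp4, Jam2, Gimap1 and Gimap6, with log2 differences from 3.55 to 4.71. Fgl2, which encodes a prothrombinase and immune regulator, was at 65.6 and 127 in endothelium, 1.66 and 3.68 in epithelium and 33.7 and 60.1 in the immune libraries (4.71 ± 0.44, adjusted p = 1.17e-06). Lyve1, a hyaluronan receptor gene of lymphatic and some blood endothelium, was at 314 and 996 against 19.1 and 57.4 (4.03 ± 0.66), with replicate 2 higher in both fractions. Ackr3, a scavenging receptor gene for CXCL12, was at 96.2 and 125 against 4.90 and 7.21 (3.99 ± 0.34). Clec14a, an endothelial lectin gene, was at 717 and 764 against 42.5 and 49.6 (3.98 ± 0.66). Thy1 had the widest error of the 12, 3.89 ± 1.07 (adjusted p = 0.00862), and its immune libraries, at 26.8 and 25.9, lay beside its endothelial ones, at 25.4 and 19.7.

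Lower in endothelium were Hp, Cbr2, Retnla, Aldh1a1, Wfdc2, Mt2, Sec14l3, Cckar, Nhlrc4, Cyp2s1, Dcxr and Cxcl15, with log2 differences from -5.34 to -4.08. Hp, the haptoglobin gene, was at 0.628 and 3.63 in endothelium, 105 and 116 in epithelium and 67.2 and 88.7 in the immune libraries (-5.34 ± 0.47, adjusted p = 6.37e-07). Cbr2, a lung carbonyl reductase gene, was at 34.9 and 155 against 2062 and 3683 (-5.20 ± 0.67). Aldh1a1, a retinaldehyde dehydrogenase gene, was at 0.655 and 0.907 against 40.9 and 61.2 (-4.85 ± 0.44). Cxcl15, the lung chemokine lungkine, was at 45.1 and 106 against 1233 and 1140.1 (-4.08 ± 0.72). All 24 genes kept their calls after rescaling and without any single P7 library.

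Whether the P7 difference held at P28 was tested as a difference of differences between the 4 P7 and 4 P28 libraries. By their names, the P28 libraries shared a sequencing run and the P7 libraries came from several, so age and run are not separated. The names of the E18.5 libraries give no run. In these comparisons of ages, a higher or lower value at P7 is a higher or lower difference, endothelium minus epithelium, and not a level. A total of 449 genes (4.19%) passed, 17 (0.159%) with a higher and 432 (4.03%) with a lower value at P7, and 103 of the 449 kept the call in all 8 fits that left out a library. The count was 134 without endothelial P7 replicate 1 or epithelial P7 replicate 2, 148 without epithelial P28 replicate 1, 189 without endothelial P28 replicate 2 and 263 without endothelial P28 replicate 1. After rescaling the counts were 32 (0.299%) and 235 (2.19%), and the median difference of differences of all genes was -0.32 as deposited and 0.01 rescaled. The epithelial P28 libraries had size factors of 0.62 and 0.60. All 7 Car4-type capillary genes, 7 of 8 general capillary genes and 11 of 16 endothelial identity genes had a smaller P7 than P28 difference, and 4, 2 and 4 of these calls held in all 8 fits that left out a library. Single fits kept 4 to 7, 2 to 5 and 4 to 6 of them, the fewest in all 3 lists without endothelial P7 replicate 1 or endothelial P28 replicate 2. After rescaling, 7 Car4-type capillary, 7 general capillary and 8 endothelial identity calls remained. Cdh5 was at 324 and 307 in endothelium and 1.60 and 1.23 in epithelium at P28, where its difference was 7.03 against 3.37 at P7 (difference of differences -3.66 ± 0.70, adjusted p = 0.00948). As percents, the same values put endothelial identity genes at 0.685% and 0.459% of their endothelial mean in the epithelial P28 libraries, against 9.05% and 8.00% at P7. These percents restate the difference and are not a separate measure. Whether transcripts from cells of the other fraction took part in it was not tested.

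For Car4 the endothelial level itself was also lower at P7, with 39.6 and 34.3 at P7 and 124 and 115 at P28, while the epithelial level was 8.59 and 4.56 at P7 and 1.04 and 0.66 at P28 (difference of differences -3.66 ± 0.69, adjusted p = 0.00868). Apln was at 129 and 110.2 in endothelium and 0.408 and 0.726 in epithelium at P28 (-3.73 ± 0.51, adjusted p = 0.00122). Thbd, S1pr1 and Smad7 followed, with differences of differences of -4.28, -4.08 and -1.89. All 11 tested guidance ligands had a lower value at P7, 9 of them after rescaling and 4 in all 8 fits that left out a library. The number kept was 5 to 7 without endothelial P7 replicate 1, epithelial P7 replicate 2 or any P28 library. They included both endothelial members such as Efnb2 (-2.42 ± 0.32) and the epithelial Sema3e (-1.90 ± 0.33). Calls of Cdh5, Car4, Apln, Thbd, S1pr1, Smad7, Efnb2 and Sema3e held in all 8 fits that left out a library, but that of Sema3e was lost with a pseudocount of 0.1 (adjusted p = 0.087).

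Of 12 type 1 cell genes, 9 had a lower difference at P7 than at P28, 4 of them also after rescaling and 3 in all 8 fits that left out a library. The number kept was 3 without epithelial P7 replicate 2 and 4 without endothelial P7 replicate 1, endothelial P28 replicate 2 or epithelial P28 replicate 1. Of 14 type 2 genes 0 passed in limma, and 1 had an unadjusted p under 0.05. Clic5 was at 20.8 and 31.1 in endothelium and 35.5 and 44.0 in epithelium at P7, and at 53.0 and 57.2 against 11.8 and 14.6 at P28, so that its difference turned from -0.62 to 1.99 (-2.61 ± 0.34, adjusted p = 0.000958). Vegfa turned in the same way, from 39.3 and 45.5 in endothelium and 143 and 111.1 in epithelium at P7 to 112.1 and 126 against 52.1 and 56.4 at P28, where both endothelial libraries exceeded both epithelial ones (-2.67 ± 0.43, adjusted p = 0.00327). Pdpn, a type 1 surface protein gene, was at 3.40 and 6.72 against 3.54 and 3.66 at P28 (-1.98 ± 0.38, adjusted p = 0.00908). Igfbp2 was at 0.975 and 2.56 against 1.31 and 1.80 (-2.52 ± 0.47, adjusted p = 0.00786), which after rescaling was 0.0574 for Pdpn and 0.0282 for Igfbp2. Without rescaling, calls of Clic5, Vegfa, Pdpn and Igfbp2 held in all 8 fits that left out a library. As percents, which restate the same values, type 1 genes stood at 61.6% and 163% of their epithelial mean in the endothelial P28 libraries, against 7.26% and 23.0% at P7. Type 2 genes stood at 12.7% and 20.2%, against 3.97% and 11.1%. The part of such shared transcripts in these differences was not tested.

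Outside the lists, 3 genes met the naming rule with a higher difference at P7 than at P28: Mbnl3, a splicing regulator gene, Cox6a2, a cytochrome oxidase subunit gene, and Lhx6, a homeobox gene. Lhx6 was at 12.1 and 12.9 in endothelium at P7 and 3.61 and 3.33 at P28 (1.24 ± 0.33), and its call (adjusted p = 0.0476) was lost in each of the 8 fits without a library, reaching 0.18 without epithelial P28 replicate 1. Mbnl3 (2.13 ± 0.53) and Cox6a2 (1.91 ± 0.51) kept theirs in 1 of 8, with adjusted p up to 0.161 without epithelial P28 replicate 1 and 0.182 without epithelial P7 replicate 2. Cox6a2 was at 6.14 and 4.57 in epithelium at P7 and 52.0 and 45.3 at P28. The 5 lowest were Pcdh1 (-3.89), Tmem100 (-3.66), Ctgf (-3.52), Mcam (-3.44) and Tbx3 (-3.37). Ctgf, a target gene of YAP, was at 39.7 and 60.2 in endothelium and 159 and 168 in epithelium at P7, and at 81.7 and 73.0 against 23.2 and 20.1 at P28, so both epithelial libraries were the higher ones at P7 and both endothelial libraries at P28. Tmem100, an endothelial gene downstream of Acvrl1, was at 219 and 273 against 26.8 and 25.9 at P7 and at 430.4 and 324 against 3.54 and 1.398 at P28. The Ctgf call was lost with a pseudocount of 0.1 (adjusted p = 0.0556), as were those of Cox6a2 (0.526) and Lhx6 (0.847). Ctgf, Tmem100 and Tbx3 held without any single library, and Pcdh1 and Mcam in 6 of 8 fits, the exceptions being those without endothelial P7 replicate 1 or epithelial P7 replicate 2 (adjusted p up to 0.0558 and 0.0667).

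**Figure D5:**
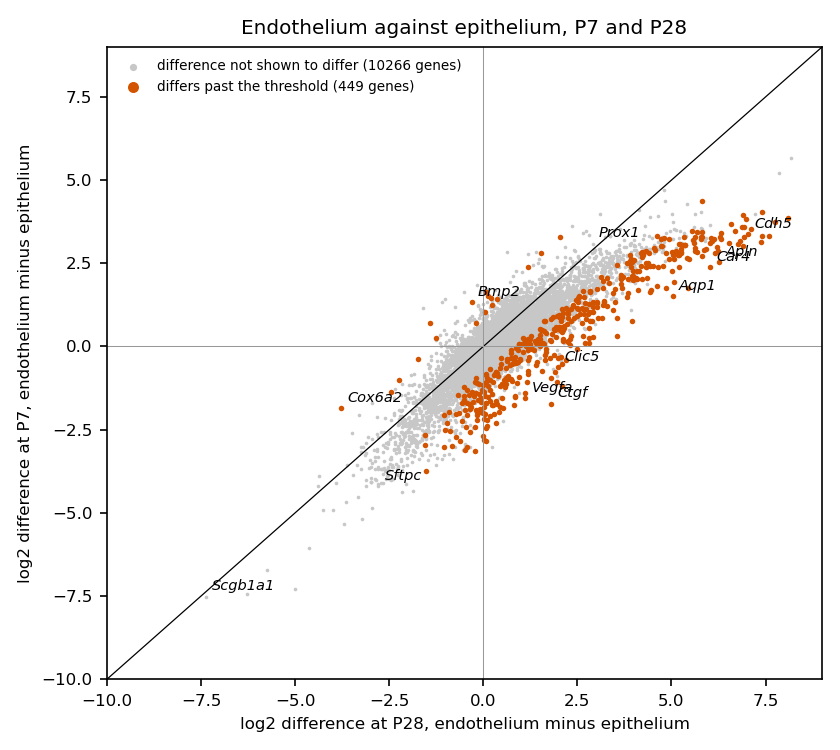
Log2 difference between endothelium and epithelium at P7 (y axis) against that at P28 (x axis) for 10715 genes, with the line of equal differences; orange points are the 449 genes whose difference differs between the ages. Most of them lie below the line, among them Cdh5 and Car4 on the right, while Vegfa, Clic5 and Ctgf lie below 0 at P7 and above 0 at P28.

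Against E18.5, 69 genes (0.644%) had a P7 difference of another size, 36 higher (0.336%) and 33 lower (0.308%). After rescaling the split was 34 (0.317%) and 91 (0.849%), and 21 of the 69 held in all 8 fits that left out a library. The count was 34 without epithelial P7 replicate 2, 31 without endothelial E18.5 replicate 2, 30 without epithelial E18.5 replicate 1 and 25 without epithelial E18.5 replicate 2. With a pseudocount of 0.1 in place of 1, only Ndrg1 and Gm5424 passed (adjusted p = 0.0299 and 0.00819), the latter named here after its values were seen. All other calls against E18.5 thus rest on the pseudocount of 1. Epithelial identity genes stood at 28.6% and 45.6% of their epithelial mean in the endothelial E18.5 libraries, against 4.75% and 11.9% at P7, and the part of this in the differences was not tested. Slc6a2 was at 0.684 and 0.414 in endothelium and 0.122 and 0.0943 in epithelium at E18.5, and at 25.9 and 51.5 against 0.556 and 1.16 at P7 (3.88 ± 0.36, adjusted p = 0.000128). Sema3c was at 0.796 and 1.06 against 1.04 and 1.08 at E18.5 and at 10.3 and 14.1 against 1.55 and 2.88 at P7 (2.16 ± 0.30, adjusted p = 0.00277), so the fractions overlapped before birth and the endothelial libraries were the higher ones at P7. Plat, the tissue plasminogen activator gene, was at 1.11 and 1.01 against 0.161 and 0.0509, then at 11.4 and 13.5 against 0.945 and 0.978 (1.88 ± 0.24, adjusted p = 0.00202). With the smaller pseudocount the adjusted p was 0.105 for Slc6a2, 0.105 for Sema3c and 0.564 for Plat.

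The genes outside the lists named by size were Fstl1, Cytl1, Ltbp4, Arl4d and Ndrg1 with a higher P7 difference, and Aldh1a1, Rprm, Dcxr, Chia1 and Gabrp with a lower one. Fstl1, a secreted follistatin-like gene, was at 61.8 and 70.5 in endothelium and 96.2 and 86.0 in epithelium at E18.5 and at 86.9 and 70.2 against 20.7 and 15.1 at P7 (2.54 ± 0.34, adjusted p = 0.00218). Its epithelial level was the one that differed most between the ages. Ndrg1, a stress-responsive gene, was at 10.7 and 9.85 against 11.9 and 10.6 before birth and at 5.56 and 4.53 against 0.535 and 0.752 at P7 (2.00 ± 0.25, adjusted p = 0.00202). Chia1, an acidic chitinase gene, was at 1.84 and 1.64 in epithelium at E18.5 and 11.04 and 12.45 at P7 (-2.63 ± 0.34, adjusted p = 0.00202). Fstl1, Ndrg1 and Chia1 held in all 8 fits that left out a library (with the smaller pseudocount, 0.17 for Fstl1, 0.0299 for Ndrg1 and 0.146 for Chia1), and the other 7 in 1 to 4 of 8. Their adjusted p reached 0.206 for Cytl1 without epithelial E18.5 replicate 1, 0.0979 for Ltbp4 without epithelial E18.5 replicate 2, 0.0979 for Arl4d without epithelial E18.5 replicate 2, 0.162 for Aldh1a1 without epithelial E18.5 replicate 2, 0.107 for Rprm without epithelial E18.5 replicate 1, 0.245 for Dcxr without endothelial E18.5 replicate 2 and 0.113 for Gabrp without epithelial P7 replicate 2. Cytl1 also lost its call after rescaling (0.074), and Aldh1a1 with the block (0.0586).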

How the data were processed

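Total RNA of sorted lung cells had been sequenced as paired-end libraries, and the processing steps named here are those of the submitters' processing notes: TopHat2 2.0.9 and the mouse build GRCm38 (mm10). No quantifier, annotation or strand is given in the sources used here. In the matrix, the deposited signal values are not whole reads: the authors scaled every library to a total of 228405, so depth and counting error are unknown, and levels were compared within genes only. Of 24371 rows, 27 with date-like names (at most 0.0968% of a library) were left out.

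Values were tested on log2(value + 1) with limma 3.58.1 (R 4.3.3, trend) over all 22 libraries in 11 groups (11 residual degrees of freedom), with Benjamini-Hochberg adjustment over the 10715 genes that reached 1 in at least 2 of the 4 P7 libraries, and a threshold of 0.05. P7 was compared with P28 and E18.5 as differences of differences. Rescaled values were divided by median-of-ratios size factors. The script was tested on simulated data. The members and gene lists were chosen with earlier results of these data known. Text names list genes, and outside the lists the 12 (for other ages, 5) with the largest differences in each direction past the threshold, with a group mean of at least 10 and groups that do not overlap, leaving out predicted and ribosomal protein genes. Some genes of the lists are not reported here.

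Same-numbered endothelial and epithelial libraries at P7 carried the same identifier, read here as the source of the cells, and were paired by it. Their deviations from the group means correlated with r = 0.629 over 10715 genes. The fit reported has no term for these pairs, and a block for this identifier was an alternative. Also tried were no filter, a minimum of 5, a pseudocount of 0.1, a filter over all libraries, size factors, a fit of the contrast's libraries alone, omission of each library, and omission of E16.5 libraries whose descriptions carry another age.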

Additional observations from a re-analysis of the deposited data

Results flagged for a closer look

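For 33 named genes the difference between endothelium and epithelium at P7 differed from that at another age in the test of the difference itself (limma, difference of differences on log2(value + 1)). These are changes of the difference, endothelium minus epithelium, and not of a level. Against P28, vessel genes had lower differences at P7: Thbd -4.28, S1pr1 -4.08, Apln -3.73, Car4 -3.66, Cdh5 -3.66, Tmem100 -3.66, Mcam -3.44, Tbx3 -3.37, Efnb2 -2.42 and Smad7 -1.89. Genes higher in epithelium than in endothelium at P7 also had lower differences: Ctgf -3.52, Vegfa -2.67, Igfbp2 -2.52, Pdpn -1.98 and Sema3e -1.90. Clic5, which missed the threshold at P7 itself, was at -2.61. Pcdh1, a protocadherin gene, was at -3.89. For Mbnl3, Cox6a2 and Lhx6 the difference was higher at P7, by 2.13, 1.91 and 1.24.

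Against E18.5, the difference at P7 was higher for Slc6a2 (3.88), Fstl1 (2.54), Cytl1 (2.40), Ltbp4 (2.36), Arl4d (2.23), Sema3c (2.16), Ndrg1 (2.00) and Plat (1.88). It was lower for Aldh1a1 (-3.10), Rprm (-2.84), Dcxr (-2.73), Chia1 (-2.63) and Gabrp (-2.34). The share of transcripts of the other fraction also differed between these ages, and its part in these values was not tested.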

How the results depend on the processing

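Read depth is not known for any library, and with 2 libraries a group the spread is estimated over all 11 groups. The count of 4514 genes at P7 ranged from 3205 (without endothelial replicate 2) to 4325 (without epithelial replicate 2) when a P7 library was left out, and was 2638 of 5779 genes with a minimum of 5, where fewer genes were tested. With the replicate block for the source identifier it was 5195, or 6525 when only the P7 libraries were fitted. Without the block, the count fell to 3311 (2090 higher and 1221 lower) when only the libraries of the P7 contrast were fitted. Of these, 3133 were among the 4514. The block moved the P28 count from 449 to 673 and the E18.5 count from 69 to 87. It made Bst1, Cldn15, Clic5, Col1a1 and Notch2 pass at P7 and ended the calls of Cox6a2 against P28 (adjusted p = 0.0526) and Aldh1a1 against E18.5 (0.0586). It changed no other call of a named gene when all libraries were fitted.

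The P28 count was 267 with size factors and 134 to 516 without a library. The E18.5 count was 2 with a pseudocount of 0.1, 247 without a filter, 15 with a minimum of 5, 125 with size factors, 27 with only the libraries of the contrast, and 25 to 90 without a library. The cause of these moves was not tested beyond the number of genes or libraries used. Gata6, which did not pass at P7, changed sign without endothelial replicate 1 or epithelial replicate 2, and ranged from -0.23 to 0.14 when a P7 library was left out. Among 147 named genes at P7, 141 stayed on their side of the threshold with a pseudocount of 0.1, 139 with size factors and 141 without a filter. The exceptions not given above were Bst1 and Notch2, which passed with a pseudocount of 0.1, Fibin, Pdgfb, Hba-a1 and Hbb-bs, which did not, Hbb-bs, which did not pass with size factors (adjusted p = 0.122), and Bpifa1, Csf1r, Fabp4, Fibin, Hbb-bs and Mki67, which did not pass without a filter (adjusted p = 0.101, 0.079, 0.0675, 0.0767, 0.119 and 0.0555).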
